A study of Mus musculus with 2 samples.

Results

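The 8 genes Foxp3, Ikzf2, Il2ra, Tnfrsf4, Tnfrsf9, Tnfrsf18, Icos and Ccr8, which mark regulatory T cells or encode costimulatory receptors of activated lymphocytes, were followed across the cells of J558 allografts. They were taken by symbol, and each matched 1 of the 32285 features in the count tables. J558 is a plasmacytoma line from BALB/c mice, and it was grown as an allograft in female BALB/c mice, which have an intact immune system. Mice were dosed orally once daily for 6 days, either with vehicle, 0.5% methylcellulose, or with 60 mg/kg of TAK-931, an inhibitor of the replication kinase CDC7. A tumour of each group was dissociated, and its cells were sequenced by droplet 3′ single-cell RNA sequencing to ask which immune cells enter the tumour and how they are activated. Each group was 1 library, so the spread between mice could not be measured and no test between groups was possible. All intervals below are exact 95% intervals that cover counting error only.

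Regulatory T cells are CD4 T cells that restrain other immune cells, and the transcription factor Foxp3 is required for their development and function. They depend on interleukin 2 from other cells, which they bind with high affinity through the receptor chain Il2ra (CD25). The receptors OX40, 4-1BB and GITR, encoded by Tnfrsf4, Tnfrsf9 and Tnfrsf18, belong to the TNF receptor superfamily, appear on T cells after antigen contact and signal through TRAF proteins to NF-kB, while ICOS is a relative of CD28. In tumours these receptors are known both from regulatory T cells and from activated CD8 T cells and NK cells, so the cell type carrying them has to be read beside the gene.

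Cells with over 2000 genes and under 15% mitochondrial counts were kept, which left 3441 of 4565 barcodes of the vehicle library and 3488 of 6558 of the TAK-931 library. Counts were of unique molecular identifiers (UMIs, tags that count single transcripts), and a kept vehicle cell had 40504 UMIs at the median against 15097 for a TAK-931 cell. Both libraries shared 8 barcodes, of which 1 was kept. A T cell needed at least 3 UMIs of Cd3d, Cd3e and Cd3g together. It was CD4-gated with a UMI of Cd4 and none of Cd8a or Cd8b1, and CD8-gated in the reverse case. An NK-gated cell had fewer than 3 Cd3 UMIs and at least 3 of the NK receptor genes Ncr1, Klrb1c, Klre1, Klra4, Klra7 and Klra8. Cells that also carried tumour or monocyte/macrophage genes above fixed limits, 102 in the TAK-931 library, were set aside as mixed. The TAK-931 library then held 108 CD4-gated, 516 CD8-gated and 50 NK-gated cells, with medians of 13555, 15084.5 and 9221.5 UMIs. The vehicle library, in which 2984 kept cells were tumour-gated, held 3, 7 and 7, so most results below describe the TAK-931 library.

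All 8 genes of a T cell list (Cd3d, Cd3e, Cd3g, Trac, Trbc1, Trbc2, Cd2 and Cd5) were detected in the CD4-gated cells, with a summed level of 5984 UMIs per 1000000 UMIs of the gate (CPM). The monocyte/macrophage list summed to 234 CPM and the tumour list to 11.6 CPM in the same cells, and Tnfrsf17 of the tumour list was at 0. Cells over 0.4% of UMIs in the former or 0.1% in the latter had been set aside, so the gate itself capped both levels. The dendritic cell and MHC class II list summed to 1631 CPM, but its median over the 108 cells was 272 CPM, and the part of these transcripts in the results was not tested. The monocyte/macrophage and the dendritic cell lists stood at like levels in the CD8-gated cells, at 285 and 1263 CPM. Cd8a and Cd8b1 summed to 1200 CPM in the CD8-gated cells. In the NK-gated cells the NK list reached 789.97 CPM with Klra8 at 0, and the T cell list 806 CPM with Cd3d and Cd5 at 0. The Cd3 genes, Cd8a and Cd8b1 and the NK list chose the cells of these gates, so their presence there follows from the gating.

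On the GRCm38 assembly Foxp3 (ENSMUSG00000039521) lies on the plus strand at chrX:7573644-7595245, where it overlaps the RNA Flicr on the same strand and Ppp1r3f, Gm36995 and Ccdc22 on the other. Tnfrsf4 (ENSMUSG00000029075, chr4:156013843-156016612) and Tnfrsf18 (ENSMUSG00000041954, chr4:156026164-156028895) are neighbouring coding genes on the plus strand with 9551 bases between them, and Tnfrsf18 overlaps Gm16008 on the minus strand. Tnfrsf9 (ENSMUSG00000028965, chr4:150914562-150946102, plus) lies on the same chromosome and overlaps Camta1 on the other strand. Icos (ENSMUSG00000026009, chr1:60977927-61000320, plus) follows Ctla4 after a gap of 62094 bases and overlaps Gm37039. Ikzf2 (ENSMUSG00000025997, chr1:69531214-69687245) is on the minus strand and overlaps Gm29112 and Gm28112 there and Gm29114 on the other strand. Il2ra (ENSMUSG00000026770, chr2:11642807-11693193) overlaps Gm37881, and Ccr8 (ENSMUSG00000042262, chr9:120092114-120094906) overlaps no other gene. How reads over shared stretches were assigned was not given in the sources used here.

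The DNA just upstream of the start is shown for the genes on which the results below turn: Foxp3, whose detection splits the CD4-gated cells, the neighbours Tnfrsf4 and Tnfrsf18, and Tnfrsf9, which was also found outside lymphocytes. The stretches are the parts of the 250 bases before the RefSeq start (GRCm38.p6, plus strand) that no annotated transcript places in a UTR or coding exon. Those of Foxp3 are chrX:7579426-7579566 for the first start and chrX:7580233-7580482 for the second. The others are chr4:156013611-156013694 for Tnfrsf4, chr4:156026072-156026163 for Tnfrsf18 and chr4:150919905-150920154 for the first start of Tnfrsf9. Capitals mark matches, on either strand, to the NFAT core (GGAAA), AP-1 (TGANTCA), STAT (TTCNNNGAA) or forkhead (GTAAACA) letters, or to an NF-kB motif of GGG and TTTCC with any 2 bases between them.
Foxp3, first start: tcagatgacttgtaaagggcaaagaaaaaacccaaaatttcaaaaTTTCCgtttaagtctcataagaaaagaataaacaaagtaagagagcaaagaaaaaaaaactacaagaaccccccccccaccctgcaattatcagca
Foxp3, second start: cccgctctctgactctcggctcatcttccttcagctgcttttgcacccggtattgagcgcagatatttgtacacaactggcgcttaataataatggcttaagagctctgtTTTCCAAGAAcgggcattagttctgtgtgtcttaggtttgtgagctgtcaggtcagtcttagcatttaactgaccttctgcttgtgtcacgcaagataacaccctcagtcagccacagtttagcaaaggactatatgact
Tnfrsf4: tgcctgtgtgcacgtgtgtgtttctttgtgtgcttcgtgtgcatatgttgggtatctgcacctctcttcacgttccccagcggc
Tnfrsf18: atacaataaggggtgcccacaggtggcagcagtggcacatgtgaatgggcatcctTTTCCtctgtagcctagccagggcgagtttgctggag
Tnfrsf9, first start: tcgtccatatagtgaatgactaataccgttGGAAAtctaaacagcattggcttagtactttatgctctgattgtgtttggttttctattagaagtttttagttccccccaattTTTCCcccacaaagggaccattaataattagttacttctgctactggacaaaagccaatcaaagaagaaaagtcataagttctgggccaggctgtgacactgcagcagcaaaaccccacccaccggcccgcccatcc

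RefSeq windows were at hand for 6 of the 8 genes, as 8 windows, and none for Ikzf2 and Icos. Over the whole 250 bases, 7 of the 8 windows held the short NFAT core, which 55.6% of 32851 windows of all genes also held, and the Ccr8 window held none of the 5 motifs. A STAT match was found before the second Foxp3 start, where it overlaps the NFAT core, before Tnfrsf18 and before the second Tnfrsf9 start (7.02% of all windows). The second Tnfrsf9 window was the only member window with an AP-1 match (6.75% of all) or an NF-kB match (1.41% of all), and any NF-kB match contains the NFAT core. No member window held the forkhead letters (3.17% of all). These matches describe the letters of the windows only.

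Among the CD4, CD8 and NK gates, Foxp3 was found almost only in CD4-gated cells. In the TAK-931 library 90 of 108 CD4-gated cells (83.3%, 74.9 to 89.8) had a Foxp3 UMI, against 4 of 516 CD8-gated cells (0.775%, 0.212 to 1.97) and 0 of 50 NK-gated cells, which allows a share of up to 6% of cells with a UMI by a limit of 3 counts and up to 7.11% by the exact interval. The summed levels were 244 CPM (222 to 268), 1.38 CPM (0.756 to 2.32) and 0. Of 1806 monocyte/macrophage-gated cells 2 had a Foxp3 UMI (median 15095.5 UMIs a cell), and of 99 tumour-gated cells 1 (median 69638). The source of these few UMIs was not tested. Most detections in the CD4 gate rested on several transcripts: 10 cells held 1 Foxp3 UMI, 26 held 2 or 3 and 54 held 4 or more, with a median of 4.5 and a maximum of 24.

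The share of cells with Foxp3 followed depth. It was 25 of 36 (69.4%) among the shallowest CD4-gated cells (5935 to 10310 UMIs), 32 of 36 (88.9%) in the middle and 33 of 36 (91.7%) among the deepest (18901 to 59381 UMIs). When each cell was thinned to 4000 UMIs drawn at random, so that all cells had equal depth, 61 of 108 (56.5%, 46.6 to 66.0) still had a Foxp3 UMI, against 3 of 516 CD8-gated cells. Of the 668 Foxp3 UMIs in kept TAK-931 cells, 66.2% lay in CD4-gated cells and 2.10% in CD8-gated cells. A further 16.6% lay in the 35 T cells with UMIs of both Cd4 and a Cd8 gene, whose median depth was 25928 UMIs, and 8.98% in the 68 cells with Cd3 UMIs and neither. In these 68 cells the fibroblast list summed to 29889 CPM (cell median 0) and the T cell list to 1825 CPM, and with the 15 cells over 0.5% of fibroblast UMIs left out all 60 Foxp3 UMIs of the gate remained. Whether the T cells with both are single cells was not tested.

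Ikzf2 encodes Helios, an Ikaros family factor frequent in regulatory T cells. Its level was 1266 CPM (1215 to 1319) in the CD4-gated, 221 CPM (211 to 230) in the CD8-gated and 150 CPM (121 to 183) in the NK-gated cells. The cell values ranged from 0 to 3810 CPM with a median of 1422 in the CD4 gate, and from 0 to 1878 CPM with a median of 143 in the CD8 gate, so the gates overlapped. At 4000 UMIs a cell it was detected in 90.7%, 46.9% and 34.0% of the 3 gates, and in 2.77% of monocyte/macrophage-gated and 1.01% of tumour-gated cells.

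Il2ra, the interleukin 2 receptor chain, was detected in 44 of 108 CD4-gated (40.7%), 139 of 516 CD8-gated (26.9%) and 6 of 50 NK-gated cells (12%), and the median cell of each gate had none. The summed levels were 99.9 CPM (85.8 to 116), 46.3 CPM (42.2 to 50.6) and 14.3 CPM (6.55 to 27.2). At equal depth the shares were 21.3%, 11% and 6%, and the interval for the NK-gated cells (1.25 to 16.5) overlapped both others.

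The TNF receptor superfamily genes were all higher in CD4-gated than in CD8-gated cells but differed in their place in NK-gated cells. Tnfrsf4 (OX40) was at 593 CPM (557.6 to 629) in the CD4-gated and 61.3 CPM (56.5 to 66.3) in the CD8-gated cells, and had 0 UMIs in the NK-gated cells. Tnfrsf9 (4-1BB) was at 749 CPM (710 to 790), 281 CPM (271 to 292) and 312 CPM (270 to 359) in the same order. Tnfrsf18 (GITR) was at 557.8 CPM (524 to 593), 146 CPM (139 to 154) and 104 CPM (79.9 to 132). OX40 transcripts were thus not detected in the 50 NK-gated cells, while the intervals for 4-1BB in NK-gated and CD8-gated cells overlapped.

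At equal depth Tnfrsf4 was found in 72.2% (62.8 to 80.4) of CD4-gated, 15.3% (12.3 to 18.7) of CD8-gated and 0 of 50 NK-gated cells. The shares for Tnfrsf9 were 78.7% (69.8 to 86.0), 54.5% (50.05 to 58.8) and 62.0% (47.2 to 75.3), and for Tnfrsf18 76.9% (67.8 to 84.4), 44.6% (40.2 to 49.0) and 24.0% (13.1 to 38.2). In monocyte/macrophage-gated cells the shares of all 3 lay between 0.554% and 0.720%. The shares in CD4-gated and CD8-gated cells stood above these, as did those of Tnfrsf9 and Tnfrsf18 in NK-gated cells. The part of free RNA in any of these shares was not tested.

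**Figure D1:**
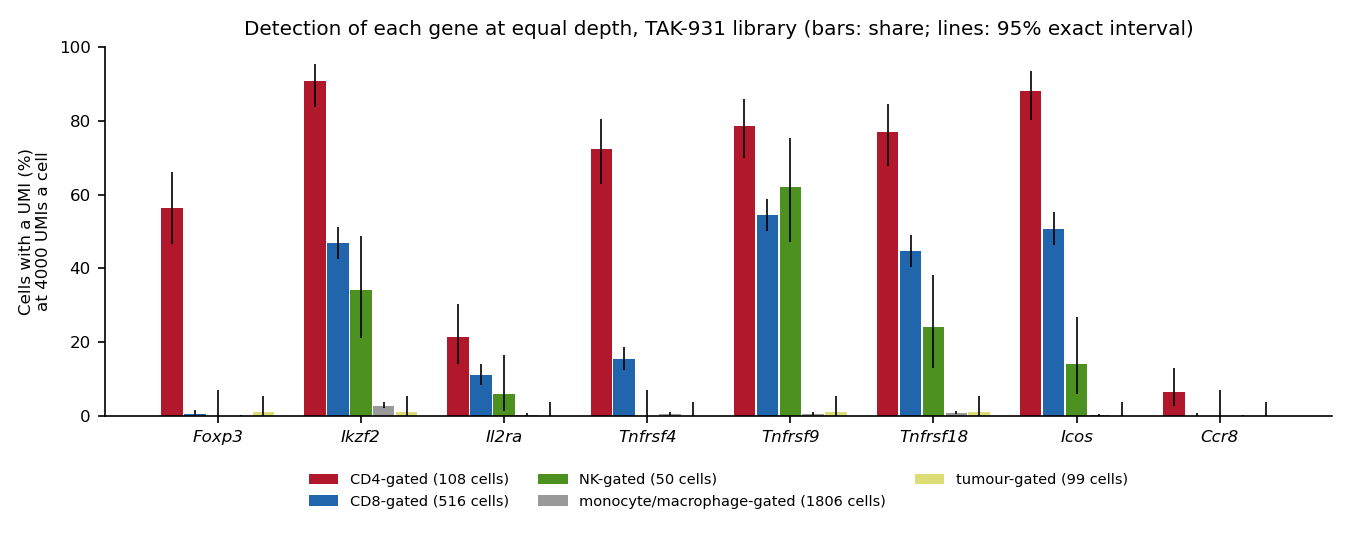
Share of cells with at least 1 UMI of each gene after thinning every cell to 4000 UMIs, by gate, in the TAK-931 library; bars are shares in percent and lines exact 95% intervals. Of the 5 gates plotted, CD4-gated cells were highest for all 8 genes, Tnfrsf9 was found in 62.0% of NK-gated cells where Tnfrsf4 was not found, and tumour-gated cells stayed at or under 1.01%.

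Icos, the inducible costimulator, was detected in 105 of 108 CD4-gated cells (97.2%), in 430 of 516 CD8-gated cells (83.3%) and in 13 of 50 NK-gated cells (26.0%). Its levels were 681 CPM (643 to 720), 223 CPM (214 to 233) and 47.8 CPM (32.2 to 68.2). At equal depth the shares were 88.0%, 50.8% and 14.0%, with intervals that did not overlap, and the order was the same as that of the levels.

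Ccr8, a chemokine receptor known from regulatory T cells in tumours, was rare in these counts. It had 19 UMIs in 15 of 108 CD4-gated cells (13.9%, 7.99 to 21.9), 3 UMIs in 516 CD8-gated cells and none in NK-gated, monocyte/macrophage-gated or tumour-gated cells. No CD4-gated cell had more than 2 UMIs, so the depth limits what can be said of its level in any cell. Of the 15 CD4-gated cells with Ccr8, 13 had Foxp3, and all 15 had Ikzf2, Tnfrsf18 and Icos. Over all 108 CD4-gated cells the shares were 83.3% for Foxp3, 90.7% for Ikzf2, 96.3% for Tnfrsf18 and 97.2% for Icos. The counts in the 15 cells thus stood near those of the whole gate.

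**Figure D2:**
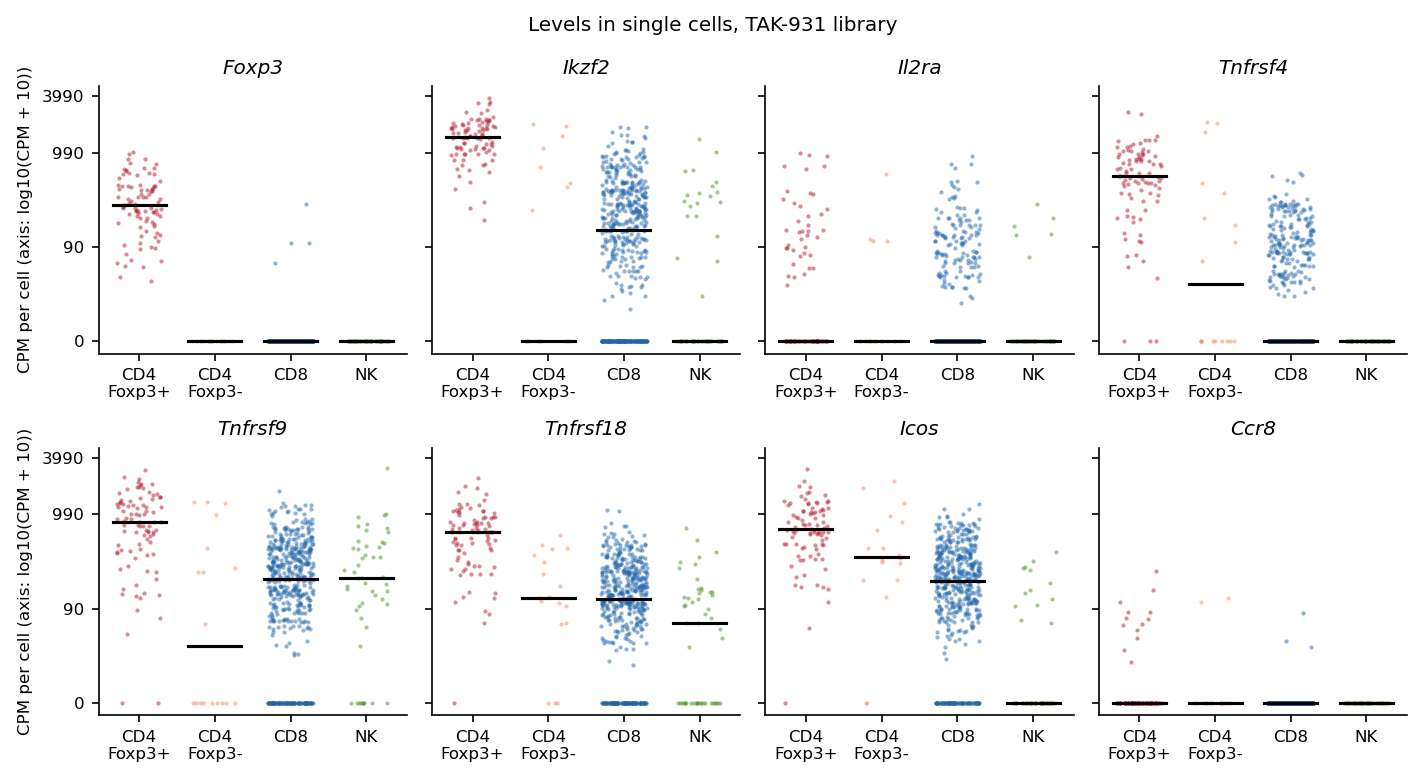
Levels of the 8 genes in single cells of the TAK-931 library, as CPM of each cell on a log10(CPM + 10) axis, for CD4-gated cells with (90) and without (18) a Foxp3 UMI, CD8-gated (516) and NK-gated (50) cells; black lines are medians. The median Ikzf2 level was 1474 CPM in the Foxp3-detected cells and 143 CPM in the CD8-gated cells, and the groups overlap for each gene other than Foxp3, which defines the first 2 of them.

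Set against CD8-gated cells, all 8 genes were higher in CD4-gated cells by at least 2-fold in summed level, where 9.04% of the 12118 genes with at least 10 UMIs were that much higher and 10.3% that much lower. The log2 ratio was 7.46 (6.70 to 8.34) for Foxp3, from 442 UMIs in 108 cells against 14 UMIs in 516 cells. It was 5.14 (3.38 to 7.54) for Ccr8 and 3.27 (3.13 to 3.42) for Tnfrsf4. These 3 differed most, by 9.67-fold or more. The ratio was 2.52 (2.44 to 2.61) for Ikzf2, 1.93 (1.82 to 2.05) for Tnfrsf18 and 1.61 (1.51 to 1.71) for Icos. It was lowest for Tnfrsf9 at 1.41 (1.32 to 1.51) and Il2ra at 1.11 (0.85 to 1.36), and the interval of Il2ra reached below 2-fold. The median of the 8 was 2.23, against -0.02 over all genes tested.

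**Figure D3:**
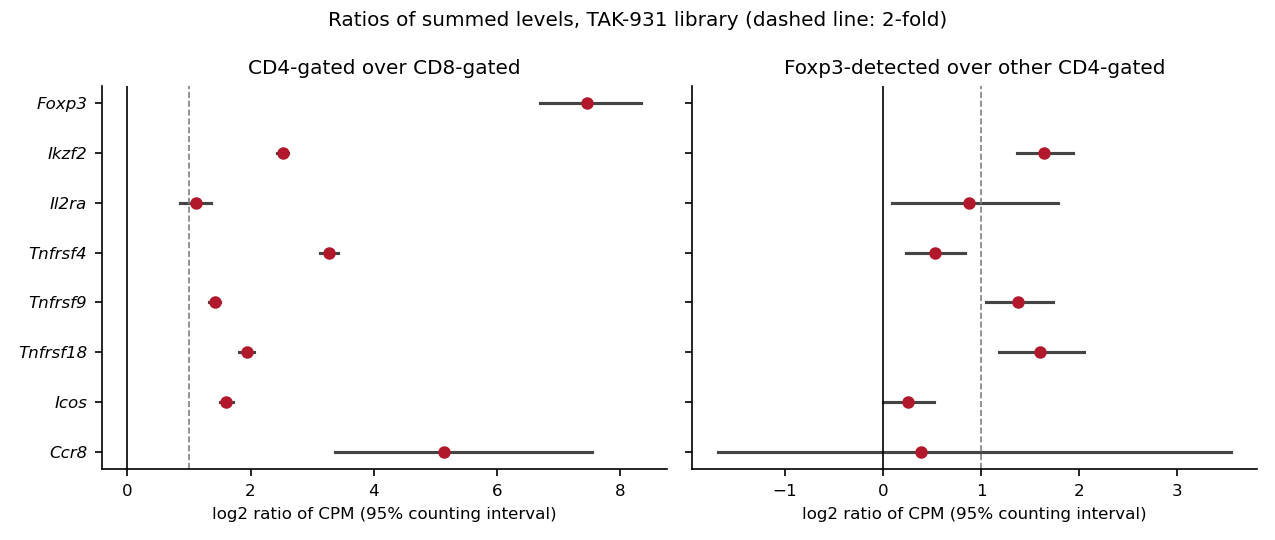
Log2 ratios of summed CPM with exact 95% counting intervals for the 8 genes in the TAK-931 library, for CD4-gated over CD8-gated cells (left) and for Foxp3-detected over other CD4-gated cells (right, without Foxp3); the dashed line is 2-fold. On the left all points lie at or beyond 1.11; on the right Ikzf2, Tnfrsf18 and Tnfrsf9 lie beyond 2-fold and Icos at 0.26.

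Within the CD4 gate, the 90 cells with Foxp3 were compared with the 18 without. Detected cells were deeper, with a median of 14421.5 against 9495.5 UMIs. Of the 7 other genes, 3 were at least 2-fold higher in the Foxp3-detected cells, where 17.3% of 8655 genes were, and 10.6% were that much lower. Ikzf2 was at 1393 against 445 CPM (log2 ratio 1.64, 1.37 to 1.94), Tnfrsf18 at 613 against 202 CPM (1.6, 1.19 to 2.04) and Tnfrsf9 at 816 against 313 CPM (1.38, 1.05 to 1.73). Helios, GITR and 4-1BB transcripts were thus richer where Foxp3 was seen.

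The other 4 genes did not reach 2-fold. Il2ra was at 106 against 57.7 CPM (log2 ratio 0.88, 0.09 to 1.78) and Tnfrsf4 at 618 against 429 CPM (0.53, 0.23 to 0.83). Icos was at 696 against 582 CPM (0.26, 0.01 to 0.52) and Ccr8 at 10.8 against 8.25 CPM (0.39, -1.68 to 3.55). The intervals of Il2ra, Tnfrsf4 and Icos excluded 0, and for Ccr8 the depth allowed no direction. The Il2ra ratio passed 2-fold with cells of over 1000 genes (1.28) or over 500 genes (1.29), without the tumour and monocyte/macrophage limits (1.20) and in the mean of each cell's CPM (1.13). After thinning to 4000 UMIs it was 3.07, from 42 UMIs against 1. Under the other alternatives set in advance it stayed below 2-fold, from 0.70 with at least 6 Cd3 UMIs to 0.99 with a limit on MHC class II UMIs. For Tnfrsf4 the median cell was at 555 CPM with Foxp3 and 30.5 CPM without. With every cell thinned to 4000 UMIs and the Foxp3 status kept from before, Ikzf2 was found in 90 of 90 against 8 of 18 cells, Tnfrsf9 in 78 against 7 and Tnfrsf4 in 72 against 6. Tnfrsf18 was found in 73 against 10, Icos in 81 against 14, and Il2ra in 22 against 1. In shares of cells, then, Tnfrsf4 differed by 80.0% against 33.3% although its summed level did not differ 2-fold.

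A few cells held much of the Tnfrsf4 and Il2ra counts in the group without Foxp3. Among the 18 cells without Foxp3, 1 cell held 138 UMIs of these genes, among them 40 of Tnfrsf4, 38 of Ikzf2, 25 of Tnfrsf9 and 25 of Icos. A second held 107, with 35 of Tnfrsf4, 38 of Icos and 10 of the 14 UMIs of Il2ra, beside 70 of Ctla4. Without the first cell the Tnfrsf4 ratio was 1.11, that of Ikzf2 2.15 and that of Tnfrsf9 1.84, and 4 of the 7 genes passed 2-fold. Without the second cell instead, Il2ra was at 106 against 17.7 CPM (2.58, 1.20 to 4.48) and the Tnfrsf4 ratio was 1.01, and 5 of the 7 passed. At the other end, 2 of the 18 cells had none of the 8 genes and carried fibroblast collagen and decorin transcripts at 37465 and 18321 CPM, so that the fibroblast list summed to 3799 CPM in this group against 12.7 CPM in the Foxp3-detected cells. With T cells over 0.5% of fibroblast UMIs left out, the ratios were 1.47 for Ikzf2, 1.42 for Tnfrsf18, 1.20 for Tnfrsf9, 0.35 for Tnfrsf4 and 0.08 for Icos, and 3 of 7 again passed.

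Cells of the CD4 gate without Foxp3 were also set against CD8-gated cells. Of the 7 genes other than Foxp3, Ccr8 had only 5 UMIs in both together and was not tested, and 3 of the other 6 were at least 2-fold higher, where 15.7% of 11853 genes were and 25.4% were that much lower. These were Tnfrsf4 (log2 ratio 2.81, 2.49 to 3.11), Icos (1.38, 1.13 to 1.63) and Ikzf2 (1.01, 0.72 to 1.29). Tnfrsf9 (0.16, -0.19 to 0.49), Il2ra (0.32, -0.56 to 1.08) and Tnfrsf18 (0.47, 0.03 to 0.88) stayed below. Tnfrsf9 and Tnfrsf18 thus passed 2-fold in the first of these comparisons and not in the second, and Tnfrsf4 and Icos in the second and not in the first. Without the cell that held 38 of the 108 Ikzf2 UMIs, the Ikzf2 ratio to CD8-gated cells was 0.51 (0.14 to 0.85), Tnfrsf4 was at 2.22 and Icos at 1.22, and 2 of the 6 genes passed. Without the second cell Ikzf2 was at 0.95, Il2ra at -1.38 (-3.26 to -0.02), Tnfrsf4 at 2.32 and Icos at 1.03, and again 2 passed. Both comparisons share the 18 cells.

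NK-gated cells differed from CD8-gated cells in part of the list. Il2ra (log2 ratio of CD8-gated to NK-gated 1.69, 0.75 to 2.83) and Icos (2.22, 1.71 to 2.79) were higher in CD8-gated cells, as was Tnfrsf4, at least 12.8-fold against a floor of 3 counts in the NK-gated cells, with an exact lower limit of 3.38 for the log2 ratio. With Foxp3, which had 14 UMIs against 0, 4 of 7 genes tested were counted at least 2-fold higher, where 18.1% of 11869 genes were and 9.76% were that much lower, but for Foxp3 the depth of the NK-gated cells sets no bound above 1. Ikzf2 (0.56, 0.26 to 0.87) and Tnfrsf18 (0.49, 0.14 to 0.88) differed by less than 2-fold. Tnfrsf9 was at 281 against 312 CPM (-0.15, -0.36 to 0.06), so its interval reached neither 2-fold higher nor 2-fold lower.

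Over the gates of the TAK-931 library, Foxp3-detected CD4-gated cells had the highest level of Ikzf2, Il2ra, Tnfrsf4, Tnfrsf9, Tnfrsf18 and Icos, and the places of the other gates differed between genes. For Ikzf2 they were followed by T cells with both Cd4 and Cd8 (781 CPM), CD4-gated cells without Foxp3 (445 CPM) and CD8-gated cells. For Tnfrsf9 the CD4-gated cells without Foxp3 (313 CPM), NK-gated cells (312 CPM) and CD8-gated cells (281 CPM) followed each other with overlapping intervals. The gate with Cd3 and neither coreceptor has no fixed place, since it holds cells with fibroblast transcripts: its Ikzf2 level was 363 CPM in all 68 cells and 678 CPM in the 53 under the fibroblast limit, and its Tnfrsf9 level 310 and 580 CPM. For Icos the 2 parts of the CD4 gate overlapped, and for Ccr8 no neighbours in the order could be told apart. Outside the lymphocyte gates the highest levels in a named gate were those of Tnfrsf9 in endothelial-gated cells (39.7 CPM), Ikzf2 in dendritic-gated cells (17.6 CPM) and Il2ra in dendritic-gated cells (11.8 CPM).

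In single cells the genes were found together. Each of the 90 Foxp3-detected CD4-gated cells had at least 5 of the 8 genes, 44 had 7 or 8, and 7 had all 8. Among the other 18 CD4-gated cells the number ranged from 0 to 6 with a median of 3.5, and 5 cells had at least 5. Foxp3 chose the first group and is counted among the 8 genes, so the other 18 cells could reach 7 at most. CD8-gated cells had a median of 4, with 169 of 516 (32.8%) at 5 or more, and NK-gated cells a median of 2, with 1 of 50. As deeper cells show more genes and Foxp3 fixes part of the count, it was repeated at 4000 UMIs a cell for the 7 genes other than Foxp3. The median was then 5 in Foxp3-detected cells, 2 in the other CD4-gated cells, 2 in CD8-gated and 1.5 in NK-gated cells, and 0 in monocyte/macrophage-gated and tumour-gated cells.

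**Figure D4:**
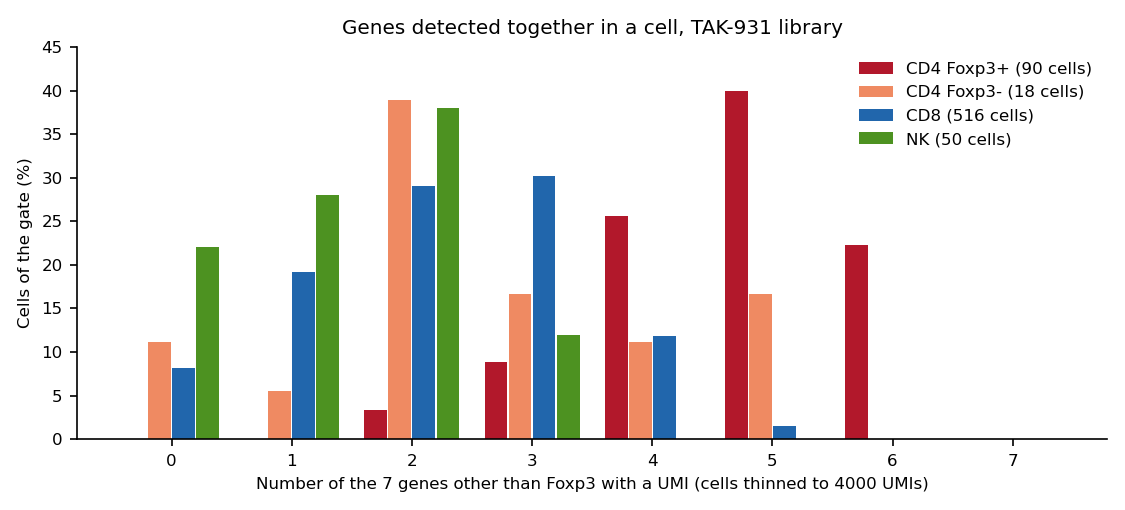
Number of the 7 genes other than Foxp3 that had a UMI in each cell, after thinning to 4000 UMIs, as a percentage of the cells of each gate in the TAK-931 library. Foxp3-detected CD4-gated cells peak at 5 genes, whereas the other CD4-gated, CD8-gated and NK-gated cells lie mostly at 1 to 3.

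The 4 CD8-gated cells with Foxp3 held 3 or 4 Foxp3 UMIs each and no Cd4 UMI, with 4 to 20 UMIs of Cd8a and 15 to 40 of Cd8b1. Their depths were 51587, 39670, 29489 and 14592 UMIs, and they held 6, 28, 44 and 19 UMIs of Ikzf2. All 4 also had Il2ra, Tnfrsf4, Tnfrsf9, Tnfrsf18 and Icos. Of these 4 cells 3 were deeper than the median CD8-gated cell (15084.5 UMIs), and whether any of them is a doublet of a CD4 and a CD8 T cell was not tested.

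Across the 90 Foxp3-detected cells, Pearson's r of levels on the log2(CPM + 10) scale ranged from -0.12 to 0.47 over the 28 pairs of the 8 genes. These coefficients describe cells of 1 library with unequal depth. The highest were 0.47 for Tnfrsf4 with Tnfrsf9, 0.41 for Ikzf2 with Icos, 0.40 for the neighbours Tnfrsf4 and Tnfrsf18, 0.39 for Ikzf2 with Tnfrsf9, 0.38 for Foxp3 with Tnfrsf18 and 0.36 for Foxp3 with Ikzf2 and for Tnfrsf9 with Tnfrsf18. All pairs with Il2ra or Ccr8 lay between -0.12 and 0.15. In the 516 CD8-gated cells the highest values were 0.28 for Ikzf2 with Tnfrsf9 and 0.26 for Tnfrsf4 with Tnfrsf18.

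Dividing cells, taken as those with at least 4 of the 6 genes Mki67, Top2a, Cdk1, Birc5, Ccnb2 and Stmn1, were 28 of the 90 Foxp3-detected cells (31.1%) and 222 of the 516 CD8-gated cells (43.0%). They were deeper, with medians of 26195.5 against 11079 UMIs in the former, and the part of depth in the split was not tested. Tnfrsf9 was lower in the dividing Foxp3-detected cells, at 618 against 1018 CPM (log2 ratio -0.72, -0.88 to -0.55), and so was Icos, at 563 against 832 CPM (-0.56, -0.74 to -0.39). Foxp3 (-0.39), Tnfrsf18 (-0.28) and Ikzf2 (-0.25) were also lower, while the intervals of Tnfrsf4 (-0.05, -0.23 to 0.14) and Il2ra (0.31, -0.15 to 0.77) included 0. In CD8-gated cells Ikzf2 was lower in dividing cells (-0.64, -0.76 to -0.52), and Tnfrsf4 (0.36, 0.11 to 0.61) and Tnfrsf9 (0.13, 0.02 to 0.25) were higher. Tnfrsf18 (-0.26) and Icos (-0.21) were lower there too. None of the differences named here reached 2-fold.

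A list of 28 further genes of the regulatory T cell programme was set beside the 8 genes. Of the 26 with enough UMIs, 18 were at least 2-fold higher in CD4-gated than in CD8-gated cells and none was 2-fold lower, where 9.04% of all genes tested were higher and 10.3% lower, with a median log2 ratio of 1.33. The transcription factor Maf (533 against 9.29 CPM, log2 ratio 5.84), the folate receptor family member Izumo1r (5.66), the integrin chain Itgae (4.78), Lrrc32, which holds latent TGF-beta at the cell surface (4.66), and the cytokine Il10 (4.26) led the list. Ctla4, the inhibitory receptor beside Icos on the chromosome, was at 610 against 110 CPM (2.47), and the ectonucleotidase Entpd1 was lower at 76.1 against 141 CPM (-0.89). Between Foxp3-detected and other CD4-gated cells 10 of the 26 were at least 2-fold higher and none lower, where 17.3% and 10.6% of all genes tested were. Il10 (55 UMIs against 0) and Il1rl1, the interleukin 33 receptor (43 against 0), were seen only in the former, whereas Ctla4 was at 618 against 557 CPM (0.15, -0.11 to 0.42).

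Of the 6 dividing-cell genes, 5 were at least 2-fold higher in Foxp3-detected than in other CD4-gated cells, where 17.3% of all genes tested were, and none was 2-fold different between CD4-gated and CD8-gated cells. In the other CD4-gated cells 5 of the 6 were at least 2-fold lower than in CD8-gated cells (median log2 ratio -2.40), where 25.4% of 11853 genes were. Foxp3 detection followed depth and dividing cells were deeper, and the part of depth in these differences was not tested.

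Of 18 genes that carry the signals of these receptors, 4 were at least 2-fold higher in CD4-gated than CD8-gated cells and none was lower, where 9.04% and 10.3% of all genes tested were. They were the interleukin 2 and STAT5 targets Cish (40.8 against 4.25 CPM, log2 ratio 3.26) and Socs2 (2.58) and the receptor adaptors Traf1 (1.15) and Traf3 (1.05). The other interleukin 2 receptor chains differed less, with Il2rb at 541 against 633 CPM (-0.23) and Il2rg at 233 against 162 CPM (0.53). Between Foxp3-detected and other CD4-gated cells 1 of the 18 was counted higher, Jak3 (41 against 3 UMIs, 1.08), and Cish (-1.16) and Traf2 (-1.76) were counted lower, where 17.3% of all genes tested were higher and 10.6% lower. The Jak3 counts were too few to tell its 2 levels apart.

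Among the genes of the ligands, Tnfsf4, the OX40 ligand, was at 60.8 CPM in CD8-gated cells and 1.10 CPM in CD4-gated cells (log2 ratio -5.78, -8.83 to -3.92), the reverse of its receptor. Of 8 ligand genes tested, 4 were counted at least 2-fold lower in CD4-gated than in CD8-gated cells and none higher. Over all genes tested 10.3% were lower and 9.04% higher. Of the 8 genes, 1 had no UMI in the CD4-gated cells. With that level set at the floor of counts, the median log2 ratio of the list moved from -0.86 to -0.15. That gene is thus not shown to be 2-fold lower. The 4-1BB ligand Tnfsf9 was highest in dendritic-gated cells (45.3 CPM), as were the ICOS ligand Icosl (11.2 CPM) and the CD28 and CTLA-4 ligand Cd86 (217 CPM). The GITR ligand Tnfsf18 did not exceed 1.66 CPM in any gate. Ccl8, a ligand of mouse CCR8, reached 3953 CPM in monocyte/macrophage-gated cells. Il2 had 18 UMIs in the CD8-gated and 1 in the CD4-gated cells, too few to give a level or to show a difference.

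By the rule of highest ratio in Foxp3-detected over other CD4-gated cells, the first 10 genes beside Foxp3, which chooses the cells, were Ube2c, Cyfip1, Ccnb2, Pcyt1a, Igkc, Nelfe, Xpo1, Lims1, Cnot2 and Mpeg1. All had 0 or 1 UMI in the 18 other cells, which sets their rank, and Igkc and Mpeg1 had 31.2% and 41.7% of their UMIs in 1 cell. Among 3940 genes, Ikzf2 was at rank 162, Tnfrsf18 at 173, Tnfrsf9 at 239, Il2ra at 553, Tnfrsf4 at 1113 and Icos at 1754. Over 9 gated cell groups, the gene most like Foxp3 in level was Neb (r = 0.97), and Ikzf2 and Tnfrsf18 were among each other's 3 closest genes (r = 0.99). The closest to Tnfrsf4 was the T cell receptor regulator Cd5 (r = 1.00), to Tnfrsf9 Gimap1os (0.98), to Il2ra Sytl1 (0.99) and to Icos Chrne (0.99), with Ctla4 the third. With 9 groups that share 1 library, and of which most have little of these genes, such coefficients are a description only.

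By treatment, the T and NK cell gates could not be compared, since the vehicle library had 3 CD4-gated, 7 CD8-gated and 7 NK-gated cells. All 3 vehicle CD4-gated cells held Foxp3, with 6, 2 and 3 UMIs. They held 71, 28 and 13 UMIs of Ikzf2, 27, 7 and 20 of Tnfrsf4, and 22, 10 and 10 of Tnfrsf18. Of the 3 cells 2 had all 8 genes and the third had 6, so the genes occurred together in the vehicle-treated tumour too. The dendritic and MHC class II list summed to 7044 CPM in these 3 cells with a median of 101 CPM, and was thus carried by 1 cell.

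None of the 7 vehicle CD8-gated cells had Foxp3, Il2ra or Ccr8. They held 7, 10, 3, 3, 0, 2 and 0 UMIs of Ikzf2 and 16, 9, 3, 4, 2, 7 and 0 of Tnfrsf9. With the limit lowered to over 500 genes, 20 vehicle and 695 TAK-931 cells were CD8-gated. The 2 groups differ in make-up, since 13 of the 20 vehicle cells and 179 of the 695 TAK-931 cells had 2000 genes or fewer. In the TAK-931 library these 179 had Il2ra and Tnfrsf4 at 6.44 CPM each, against 46.3 and 61.3 CPM in the 516 with more genes. Tnfrsf4 was then at 116 CPM in vehicle and 57.4 CPM in TAK-931 cells (log2 ratio -1.02, -1.69 to -0.25), and Il2ra had 0 against 473 UMIs, at least 2.24-fold higher in the TAK-931 library against a floor of 3 counts, with an exact lower limit of 0.86 for the log2 ratio. The intervals of Ikzf2 (-0.30, -0.74 to 0.18), Tnfrsf9 (-0.07, -0.50 to 0.39), Tnfrsf18 (0.01, -0.60 to 0.69) and Icos (-0.27, -0.72 to 0.21) included 0. These are values of 2 libraries, and 18 Tnfrsf4 UMIs in 20 vehicle cells carry the first of them.

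Over all kept cells, all 8 genes were at least 2-fold higher in the TAK-931 than in the vehicle library, where 37.3% of 18139 genes were. The log2 ratios were 6.53 for Icos, 5.90 for Il2ra, 5.84 for Ikzf2, 5.82 for Foxp3, 5.46 for Tnfrsf4, 4.65 for Ccr8, 4.11 for Tnfrsf9 and 3.27 for Tnfrsf18, with a median of 5.64 against 0.33 over all genes. The kept vehicle cells were 86.7% tumour-gated and 0.0872% CD4-gated, and the kept TAK-931 cells 2.84% and 3.1%, so that more T cells and more transcripts per T cell cannot be told apart in these sums.

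Tnfrsf18 and Tnfrsf9 had the lowest of these ratios, and both had UMIs in other vehicle cells. Of the 713 vehicle Tnfrsf18 UMIs, 581 (81.5%) lay in 472 of the 2984 tumour-gated cells, at 4.36 CPM, and the 99 tumour-gated cells of the TAK-931 library had 3.21 CPM. Of the 724 vehicle Tnfrsf9 UMIs, 494 (68.2%) lay in endothelial-gated cells.

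In the monocyte/macrophage gate, which had 186 vehicle and 1806 TAK-931 cells, Ikzf2 was at 6.57 against 6.40 CPM (log2 ratio -0.04, -0.77 to 0.80). In the tumour-gated cells of the same libraries it was at 0.0525 and 0.146 CPM. Of 6 genes with enough UMIs, 4 were counted at least 2-fold higher in the TAK-931 library and none lower, where 15.3% of 13448 genes were higher and 9.18% lower. These 4, Tnfrsf4, Tnfrsf9, Tnfrsf18 and Icos, had 0, 2, 0 and 0 UMIs in the vehicle cells, and each interval included equal levels.

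Endothelial-gated cells carried Tnfrsf9 at a level that differed between the libraries. In the vehicle library 66 of 85 such cells (77.6%, 67.3 to 86.0) had a UMI, at 283 CPM (259 to 309), and in the TAK-931 library 78 of 235 (33.2%, 27.2 to 39.6), at 39.7 CPM (34.1 to 45.9). The log2 ratio of TAK-931 to vehicle was -2.84 (-3.09 to -2.59), where 10.7% of 12123 genes were at least 2-fold lower and 12.5% that much higher. At 4000 UMIs a cell the shares were 51.8% (40.7 to 62.7) and 12.8% (8.78 to 17.7). Of the 7 other genes only Ikzf2, with 3 against 25 UMIs, had enough UMIs for a ratio (1.66, -0.05 to 4.04). Transcripts of other cell types differed between the same cells: the monocyte/macrophage list summed to 14.3 CPM in the vehicle and 1238 CPM in the TAK-931 library, with cell medians of 0 and 185 CPM, and the dendritic and MHC class II list to 319 and 5485 CPM. Their part in the result was not tested.

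T cell transcripts were also counted in these cells. The vehicle endothelial-gated cells had 6 UMIs of Trac, 1 of Cd3e and 0 of Cd3d, Cd3g and Trbc2, beside 494 of Tnfrsf9. Those of the TAK-931 library had 7 of Trac, 8 of Cd3e, 8 of Cd3d, 13 of Cd3g and 38 of Trbc2, beside 182 of Tnfrsf9. An endothelial-gated cell needed at least 0.1% of its UMIs in the 5 marker genes Pecam1, Cdh5, Kdr, Egfl7 and Emcn together. That all 85 vehicle cells had Pecam1 and Cdh5 therefore follows largely from the gate, and the levels of the 5 genes below are those of the genes that chose the cells. Of the 5 endothelial marker genes listed, Kdr, the VEGF receptor, was at 647 CPM in the vehicle against 316 CPM in the TAK-931 library, the sialomucin Emcn at 840 against 336 CPM, Cdh5 at 1728 against 1043 CPM, Pecam1 at 1240 against 1010 CPM and Egfl7 at 966 against 922 CPM. Kdr and Emcn were thus at least 2-fold lower, as Tnfrsf9 was, and Cdh5, Pecam1 and Egfl7 were not. The part in the result of a different make-up of the endothelial cells was not tested.

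**Figure D5:**
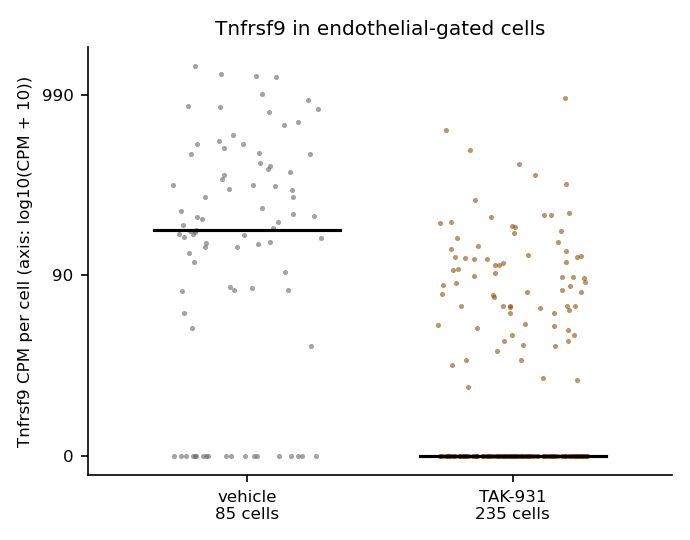
Tnfrsf9 in endothelial-gated cells as CPM of each cell on a log10(CPM + 10) axis, for 85 vehicle and 235 TAK-931 cells; black lines are medians. The vehicle median was 168 CPM and the TAK-931 median 0, and the cells of the 2 libraries overlap.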

How the data were processed

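The authors made 1 single-cell library per group with Chromium 3′ v3.1 chemistry. The deposited matrices hold raw UMI counts per gene and barcode, as Cell Ranger 6.0.0 wrote them, without normalization. The submitters' processing notes name mm10, whereas the methods name a human build for all data; the features carry mouse identifiers. The libraries held 144767193 and 77369283 UMIs. The cell limits were those of the methods. Gates used UMIs of fixed genes, with mixed cells over 0.1% tumour or 0.4% monocyte/macrophage UMIs. No doublet caller was run, and T cells with fibroblast or MHC class II transcripts stay in the gates. UMIs were summed per gate as CPM with Poisson intervals, ratios had conditional intervals, and shares Clopper-Pearson intervals. Cells were thinned once with seed 1. A gene was called at 2-fold when the compared sums held 10 UMIs or more; a level of 0 was bounded with 3 counts. The genes named were the 8 members, fixed lists of 11 ligands and partners, 18 signal genes, 28 regulatory T cell programme genes, 15 helper T cell genes and 6 dividing-cell genes, and the genes most like the members. The results of the helper T cell list are not reported here. The members and lists were chosen with earlier results of these data known. The design named a comparison of CD8-gated cells by treatment, which needed 10 cells in each library and was not made. The steps were tested on simulated data. The software was scipy 1.17.1, numpy 2.4.6, pandas 2.3.3 and matplotlib 3.10.9 under python 3.11.15. Alternatives were other gene, mitochondrial and Cd3 limits, no or stricter lineage limits, other gene minimums, the mean of each cell's CPM, and other thinning.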

Additional observations from a re-analysis of the deposited data

Results flagged for a closer look

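Signal also appeared outside the cells compared, in barcodes with 2000 genes or fewer but more than 500. Of the 65 such CD4-gated barcodes in the TAK-931 library (median 4591 UMIs), 87.7% had Icos, 72.3% had Tnfrsf18, 64.6% had Tnfrsf4 and 46.2% had Ikzf2. Each of these shares was above that in the vehicle library, where 5 such barcodes gave 60% for the first 3 genes and 40% for Ikzf2. Foxp3 (32.3% against 40%), Il2ra (23.1% against 40%) and Tnfrsf9 (44.6% against 60%) were found in a smaller share than in the vehicle library, and Ccr8 in 7.69% against 0 of 5. With 5 vehicle barcodes the numbers are too small to show a difference in either direction.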

How the results depend on the processing

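The share of CD4-gated cells with Foxp3, 83.3% as reported, was 64.9% with cells of over 1000 genes, 64.2% with over 500 genes, 56.5% after thinning to 4000 UMIs and 36.1% after thinning to 2000. It moved by less than its counting interval under the other alternatives, and the counts of genes at least 2-fold different stayed within 1.5 times their values, except that 5 rather than 3 of 7 genes were higher in Foxp3-detected than other CD4-gated cells without the Foxp3-not-detected cell with the second most UMIs of these genes. In the comparison of Foxp3-detected with other CD4-gated cells, 18 of 124 ratios moved beyond their interval or, for Ccr8 in 1 case, changed sign within it, against 7 of 111 for CD4-gated over CD8-gated cells. Il2ra ranged most in the former, from 0.70 to 3.07, with the highest value after thinning to 4000 UMIs, Tnfrsf4 from 0.35 to 1.11, and Ccr8 from -0.11 to 0.77, the only gene whose ratio changed sign. The limit of 0.2% monocyte/macrophage UMIs, the fibroblast limit and the omission of each of 2 cells were chosen after seeing the data. No paired analysis was possible because each group has 1 library, and leaving out a replicate was not possible for the same reason. Depth limits Ccr8, Il2 and every value of the vehicle T and NK cells. Cells near a gate's limit, such as the 23 CD4-gated cells with 1 Cd4 UMI, may belong elsewhere.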
